A study of Mus musculus with 12 samples.

Results

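The genes examined are 37 genes of fatty acid oxidation, of ketone body formation and of the response to the nuclear receptor PPAR-alpha in mouse liver. They were taken by gene symbol, and all 37 were found among the 21705 genes of the deposited table. Female C57BL/6J mice of 10 to 12 weeks received either saline or LNA29 by tail vein injection. LNA29 is a mixture of locked nucleic acid inhibitors, short modified oligonucleotides that bind and block mature miR-29a and miR-29b/c, and each inhibitor was given at 20 mg/kg. Livers of 6 saline-treated and 6 LNA29-treated mice were collected on day 7, in both groups after an overnight fast. Both groups were of one strain and sex. The sequenced livers were all of these groups, and none received a control oligonucleotide. An effect of any injected oligonucleotide and the inhibition of miR-29 therefore cannot be told apart in these data.

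Between meals the liver takes up fatty acids, couples them to coenzyme A and shortens them by beta-oxidation, and it turns much of the product into ketone bodies that feed other organs. Long-chain fatty acids enter mitochondria as carnitine esters, while very long chains are first shortened in peroxisomes. PPAR-alpha is switched on by fatty acids, and together with its partner RXR it binds DNA and raises transcription of many genes of both routes. A microRNA lowers the mRNA of its targets by pairing of its seed, bases 2 to 8, with the 3′ UTR, so that a blocked microRNA leaves its direct targets higher.

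The mature miR-29 sequences (RefSeq, GRCm38.p6) are shown because the inhibitors were made against them, with the seed in capitals. All 3 share 1 seed.
miR-29a-3p: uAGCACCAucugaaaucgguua
miR-29b-3p: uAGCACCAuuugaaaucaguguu
miR-29c-3p: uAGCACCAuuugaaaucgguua
They lie at chr6:31062673-31062694 on the minus strand for miR-29a, and at chr1:195037091-195037113 and chr1:195037600-195037621 on the plus strand for miR-29b (from Mir29b-2) and miR-29c.

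The complement of the seed, TGGTGCT, was searched on the transcribed strand of 3′ UTRs, taking for each gene its longest one in GENCODE M21 (GRCm38). It was found in 5 of the 37 genes (13.5%) and in 1876 of 12125 tested genes (15.5%). The longer match TGGTGCTA, which holds the first, was found in 2 of 37 (5.41%) and in 399 of the 12125 genes (3.29%). The median 3′ UTR was 747 bases for the 37 genes and 1142 bases for all tested genes, and the part of this difference in the shares was not tested. The 5 genes were Bdh1 with 4 matches, Ehhadh with 2, and Cpt2, Slc22a5 and Angptl4 with 1 each. Their log2 fold changes ran from -0.32 for Cpt2 to 0.73 for Ehhadh. The sites of Cpt2, Ehhadh and Bdh1 shown here have the 7 bases in capitals and are the ones the results refer back to. All are in the 3′ UTR part of the last exon.
Cpt2, exon 5, chr4:107904134-107904140, minus strand: aaactagttccTGGTGCTtgagcagccag
Ehhadh, exon 7, chr16:21761950-21761956, minus strand: gctggtggtggTGGTGCTaaatggtcagc
Bdh1, exon 7, chr16:31457891-31457897, plus strand: taggacaggatTGGTGCTatgcttggtgc
In Ehhadh and Bdh1 the base after the capitals extends the match to TGGTGCTA.

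The DNA element bound by PPAR-alpha with RXR is a direct repeat with 1 base between the repeats, and AGGTCANAGGTCA was searched on both strands from 250 bases before to 50 bases after each start (RefSeq, GRCm38.p6). Promoters were matched for 30 of the 37 genes, without Decr1, Angptl4, Crat, Acaa2, Abcd2, Hsd17b4 and Vnn1. With at most 2 mismatches the element was present in 4 of 30 (13.3%), namely Fabp1, Creb3l3, Etfa and Slc25a20, and in 3.86% of all 32851 promoters. With at most 1 mismatch it was present only in Fabp1 among the 30 (3.3%), against 0.55% of all promoters. This promoter is shown with the element in capitals, read on the strand opposite to the gene, 67 bases before the start at chr6:71199812-71199824.
Fabp1: tcagatatAGGCCATAGGTCAgtgattgt

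The deposited values are reads per gene divided by the upper quartile of the library, which was set to 1000. Saline libraries held between 8217212 and 19062437 reads on genes and LNA29 libraries between 7696081 and 15079236, and 1 read was worth between 9.804 and 24.39 in this unit. Albumin took 35.66% of the reads in saline replicate 49 and between 43.55% and 46.91% in the other livers. In the same library the deviations from the mean of each gene over all 12 livers followed transcript length (Spearman rho = 0.497 over 12141 genes). Genes are not independent replicates. In saline replicate 47 the deviations went the other way (rho = -0.295). Over the 37 genes alone, with deviations from the saline means, the rho was 0.49 and -0.51 in these libraries. Among known targets of miR-29, Sparc, Eln and Col3a1 did not overlap between the groups and were higher in LNA29 livers (exact permutation p = 0.00216 each), and Col1a1 stood at 0.70 on the log2 scale (exact permutation p = 0.123). Of 9 hepatocyte markers, all had reads in every liver.

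The 37 genes moved little as a group. Vnn1, Abcd2, Hadh, Cpt2, Acsl5 and Acaa2 were lower in LNA29 livers and Fgf21 was higher, each with p under 0.05, before any adjustment, in an exact permutation test with all ways to divide the 12 livers into groups of 6, and the other 30 did not pass. These are 6 of 37 genes lower (16.22%) and 1 of 37 higher (2.7%), where 6.34% of all 12486 tested genes passed as lower and 2.15% as higher. The median log2 fold change was -0.12 over the 37 genes and -0.09 over all tested genes. Mean log2 values were lower in LNA29 livers for 28 of the 37 genes (75.7%) and for 61.4% of all tested genes, and for 23 of the 37 after a shift to a common median or in edgeR and 20 in DESeq2. After Benjamini-Hochberg adjustment over all tested genes in limma, 0 of the 37 had a p under 0.05, and 20 of all tested genes did (0.16%). Without adjustment 6 of the 37 had a limma p under 0.05, 5 of them lower. Of all 12486 tested genes 988 did, 745 of them lower. DESeq2 on recovered reads called 1 of the 37, Vnn1, after adjustment.

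The counts differed between the fits. After a shift of each liver to a common median 5 of the 37 were lower and 1 higher, where 5.11% and 2.76% of all tested genes were. In edgeR with TMM scaling 2 of the 37 were lower and 2 higher (4.83% and 3.81% of all genes in that fit), and in DESeq2 5 were lower and 3 higher (2.81% and 2.44%), both at an unadjusted p. Of all genes that passed, 74.6% were lower in the main test, 65.0% after the shift, 55.9% in edgeR and 53.5% in DESeq2. With the length trend of each library as a covariate in limma, 11 of the 37 were lower and 3 higher at an unadjusted p under 0.05, where 9.02% and 3.27% of all tested genes were. Saline replicate 47 and LNA29 replicate 52 held reads of several fat cell markers, given with the other markers, and without both of them 3 of the 37 (Vnn1, Cpt2 and Abcd2) were lower and 1 (Fgf21) higher, where 5.53% and 1.92% of all tested genes were.

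**Figure D1:**
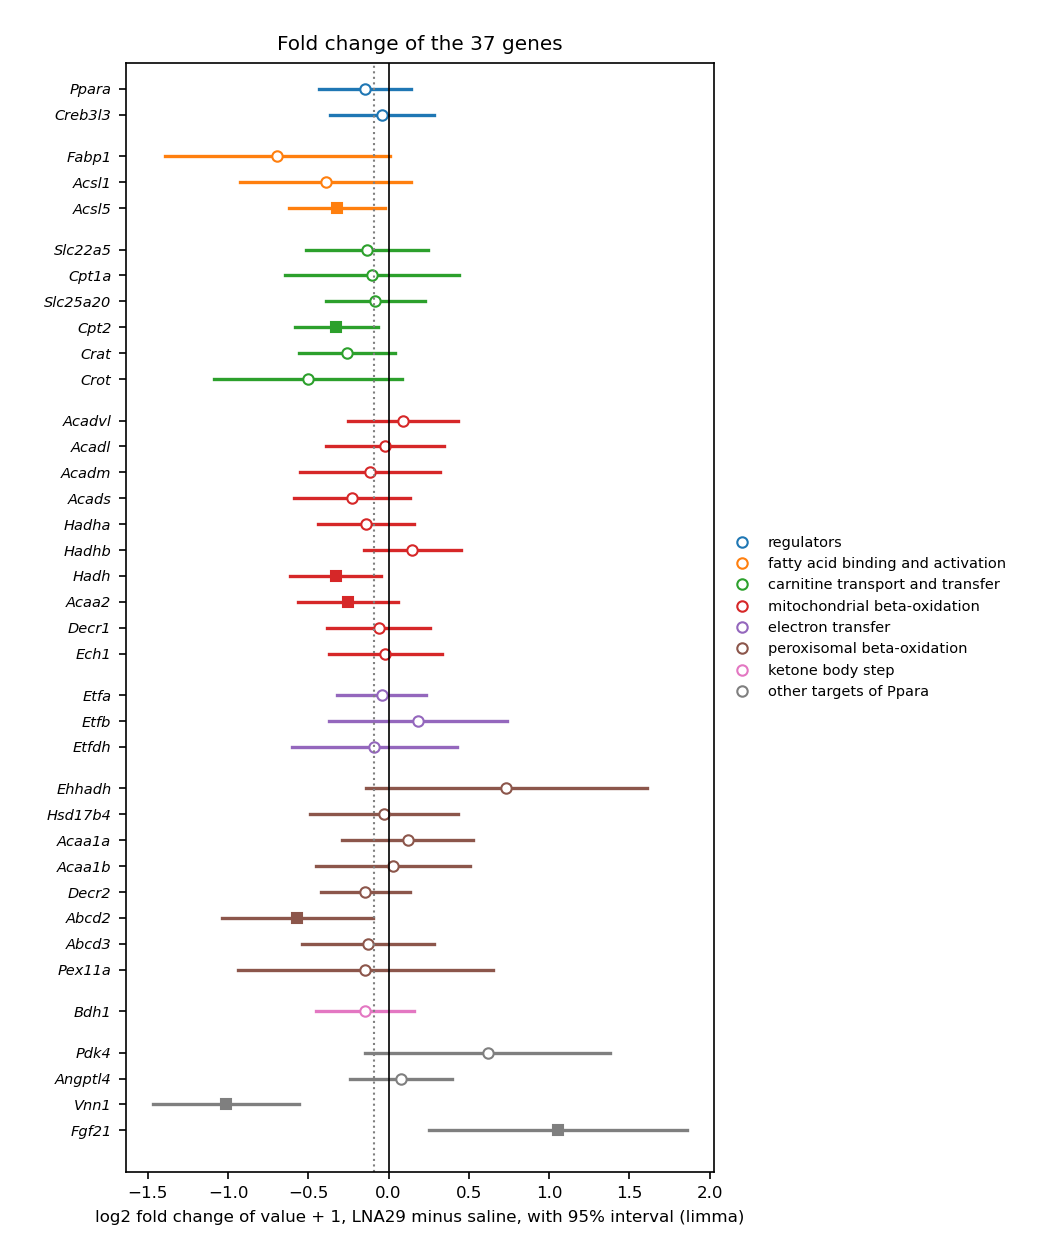
Log2 fold change of each of the 37 genes (x axis, LNA29 minus saline, on the log2(value + 1) scale) with its 95% interval from limma, ordered and coloured by role. Filled squares have an exact permutation p under 0.05, open circles do not, and the dotted line is the median of all tested genes at -0.09. Vnn1 at -1.01 and Fgf21 at 1.06 lie farthest from 0, and 30 of the 37 lie within 0.5 of it.

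Of the regulators, neither passed the test. Ppara, which encodes PPAR-alpha itself, had values from 3895 to 6170 with a median of 4412 in saline livers, and from 3696 to 4707 with a median of 4176 in LNA29 livers. The groups overlapped, and 2 LNA29 livers lay below all saline livers. The log2 fold change was -0.15 (standard error, SE, 0.14, 95% interval -0.43 to 0.14, exact permutation p = 0.253). As a fold, the interval ran from 0.741 to 1.10. Creb3l3, a liver transcription factor that acts with PPAR-alpha on Fgf21, had a log2 fold change of -0.04 (95% interval -0.37 to 0.28) and the exact permutation p was 0.779.

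Among the genes of fatty acid binding and activation, all 3 had lower means in LNA29 livers and 1 passed the test. Acsl5, which couples long-chain fatty acids to coenzyme A, had values from 3559 to 4875 with a median of 3762 in saline livers and from 2679 to 4178 with a median of 2938 in LNA29 livers. LNA29 replicate 54 was the one treated liver above the saline median, and 4 LNA29 livers lay below all saline livers. Acsl5 fell by 0.32 on the log2 scale (SE 0.14, exact permutation p = 0.0368, adjusted p in limma = 0.583). The exact p was no longer under 0.05 when any of saline replicates 43, 45 and 51 or LNA29 replicates 46, 48, 50 and 52 was left out, with log2 fold changes from -0.41 to -0.26 over all omissions. In edgeR and DESeq2 the unadjusted p was 0.0873 and 0.0860.

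Fabp1, the abundant liver protein that carries fatty acids through the cytosol, had the lowest log2 fold change among the genes that did not pass. Its values ran from 183190 to 639600 with a median of 305980 in saline livers and from 148530 to 332660 with a median of 174300 in LNA29 livers, and 4 LNA29 livers lay below all saline livers. The log2 fold change was -0.69 (95% interval -1.40 to 0.01, exact permutation p = 0.0844). Without saline replicate 49, the lowest saline liver, the exact permutation p was 0.0325, and without LNA29 replicate 46 it was 0.0476. On the scale of value per kilobase of transcript Fabp1 was the highest of the 37 genes in saline livers, at 658150, ahead of Acaa1b at 55154. Its transcript of 553 bases is also the shortest of the 37, and its 3.49-fold range in saline livers ran from replicate 49 to replicate 47, the libraries with the opposite length trends. With the length covariate in limma Fabp1 stood at -0.72 (unadjusted p = 0.0211), and in DESeq2 the unadjusted p was 0.0391. Acsl1, the other long-chain activating enzyme, stood at -0.39 on the log2 scale (exact permutation p = 0.227).

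The carnitine route showed the most regular difference of all, in Cpt2. This enzyme of the inner mitochondrial membrane returns acyl groups from carnitine to coenzyme A. Its values in saline livers, in the order of replicates 43 to 53, were 5297, 5984, 5298, 5560, 5535 and 5324, within 1.13-fold of each other, and in LNA29 livers, in the order of replicates 44 to 54, they were 4775, 5073, 3642, 4214, 3887 and 4932. All 6 LNA29 livers lay below all 6 saline livers, as they did for 89 of the 12486 tested genes (0.713%), and for no other of the 37 genes. Cpt2 fell by 0.32 on the log2 scale (SE 0.12, 95% interval -0.58 to -0.07, adjusted p in limma = 0.457), and the exact permutation p of 0.00216 is the smallest that 6 against 6 livers can give. It held with any liver left out (-0.37 to -0.27 on the log2 scale), and in edgeR with TMM scaling the unadjusted p was 0.0533. Cpt2 is 1 of the 5 genes with a miR-29 seed match, the site printed above, and whether miR-29 acts at this site was not tested.

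Cpt1a, the malonyl-CoA-sensitive gate at the outer membrane, had values from 4842 to 12310 with a median of 8711 in saline livers and from 4226 to 11902 with a median of 9078 in LNA29 livers. The groups covered nearly the same range. Its log2 fold change was -0.10 with a 95% interval of -0.65 to 0.44 (exact permutation p = 0.740), and DESeq2 put it at 0.005, so that no direction can be given. The carnitine importer Slc22a5, the carnitine/acylcarnitine translocase Slc25a20 and the carnitine acyltransferases Crat and Crot had log2 fold changes from -0.50 to -0.08 and exact permutation p-values from 0.0779 to 0.576. All 6 LNA29 livers lay below the saline median of Crat, and without saline replicate 43 its exact permutation p was 0.0130. For Slc25a20 DESeq2 gave 0.006 in place of -0.08.

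In the mitochondrial spiral of beta-oxidation, 2 of 10 genes were lower past the test and 8 were not. Hadh, the short- and medium-chain hydroxyacyl-CoA dehydrogenase, had values from 12980 to 17844 with a median of 15067 in saline livers and from 10509 to 14415 with a median of 12358 in LNA29 livers. Of the LNA29 livers 3 lay below all saline livers, and all 6 lay below the saline median. Hadh fell by 0.33 on the log2 scale (SE 0.14, exact permutation p = 0.0238, adjusted p in limma = 0.525), and it stayed under 0.05 with any liver left out (exact permutation p from 0.0108 to 0.0476). In edgeR the unadjusted p of Hadh was 0.0770, and without both livers with fat cell markers the exact permutation p was 0.0556.

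Acaa2, the thiolase of the mitochondrial matrix, had values from 28440 to 49298 with a median of 37715 in saline livers and from 27849 to 34384 with a median of 32339 in LNA29 livers. All 6 LNA29 livers lay below the saline median, and saline replicate 49 lay among them. The log2 fold change was -0.25 (SE 0.15, exact permutation p = 0.0498, adjusted p in limma = 0.731). The call was the least firm of the 6 lower genes, since of the omissions of 1 liver it held only without saline replicate 49 (exact permutation p = 0.00216) and in none of the other 11. The p was 0.260 by the exact permutation test after the shift to a common median, 0.204 in edgeR and 0.165 in DESeq2.

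The acyl-CoA dehydrogenases that open the spiral showed no change past the spread between livers. Acadl, the long-chain enzyme, had values from 3807 to 6734 with a median of 4934 in saline livers and from 3698 to 6244 with a median of 5174 in LNA29 livers. Its log2 fold change was -0.02 with a 95% interval of -0.39 to 0.34 (exact permutation p = 0.905), and the sign turned under each change of scaling. Acadvl, Acadm and Acads, for very long, medium and short chains, had log2 fold changes of 0.09, -0.12 and -0.23 (exact permutation p = 0.571, 0.613 and 0.242). Hadha and Hadhb encode the subunits of the trifunctional protein and lie 85 bases apart on chromosome 5 on opposite strands. Their log2 fold changes were -0.14 and 0.15 (exact permutation p = 0.249 and 0.294). The auxiliary enzymes for unsaturated chains, Decr1 and Ech1, stood at -0.06 and -0.02 (exact permutation p = 0.660 and 0.905), and both turned positive in edgeR and DESeq2. Of the electron transfer genes, which pass electrons from the dehydrogenases to the respiratory chain, Etfa stood at -0.04, Etfb at 0.19 and Etfdh at -0.09 (exact permutation p from 0.561 to 0.773).

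Peroxisomal genes gave 1 of 8 past the test. Abcd2, a transporter of very long-chain fatty acids in the peroxisomal membrane, had values from 684 to 1547 with a median of 922 in saline livers and from 509 to 981 with a median of 616 in LNA29 livers, from between 21 and 120 reads. In 4 LNA29 livers it lay below all saline livers, while LNA29 replicate 48 lay above the saline median. Abcd2 fell by 0.57 on the log2 scale (SE 0.22, 95% interval -1.04 to -0.10, exact permutation p = 0.0346, adjusted p in limma = 0.488). The exact p was no longer under 0.05 without any of saline replicates 43, 49 and 51 or LNA29 replicates 44, 46, 50 and 52 (log2 fold change -0.69 to -0.44). Abcd3, a related transporter, stood at -0.13 on the log2 scale (exact permutation p = 0.567).

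Ehhadh, the bifunctional enzyme of the inducible peroxisomal route, differed more between livers of 1 group than any other of the 37 genes. In saline livers the values were 31562, 38921, 13404, 55390, 27475 and 25647. In LNA29 livers they were 79088, 110120, 15623, 55804, 24415 and 73178, a 7.05-fold range. Replicates 44, 46, 50 and 54 lay above all saline livers, replicates 48 and 52 below the saline median. On the log2 scale the difference was 0.73 (SE 0.42, 95% interval -0.14 to 1.61, exact permutation p = 0.188, adjusted p in limma = 0.726). Without LNA29 replicate 48 the log2 fold change was 1.06 (exact permutation p = 0.0455), and the unadjusted p was also under 0.05 in edgeR, in DESeq2 and with the length covariate. Ehhadh carries 2 miR-29 seed matches, 1 of them the longer one printed above.

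Hsd17b4, the other bifunctional enzyme, stood at -0.03 (exact permutation p = 0.877) and was positive after each change of scaling. Acaa1a and Acaa1b are near-identical peroxisomal thiolases, and 21.6% of the 100-base stretches of the Acaa1a transcript also occur in Acaa1b, so that RSEM could split reads between them and each single value is uncertain. Acaa1a ran from 16519 to 36441 with a median of 23673 in saline livers and from 18381 to 30637 with a median of 27458 in LNA29 livers (log2 fold change 0.12, exact permutation p = 0.574). For Acaa1b the values ran from 72856 to 123870 with a median of 86132 and from 66845 to 138050 with a median of 86328 (log2 fold change 0.03, exact permutation p = 0.885). Their sum was 117056 ± 27324 in saline and 122311 ± 33691 in LNA29 livers (SD, n = 6 each, exact permutation p = 0.771). Decr2, which reduces unsaturated chains, and Pex11a, which takes part in peroxisome division, both stood at -0.15 on the log2 scale (exact permutation p = 0.212 and 0.762), for Pex11a from between 8 and 99 reads.

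The ketone body gene of the set is Bdh1, the mitochondrial 3-hydroxybutyrate dehydrogenase that makes the circulating ketone body. Its values ran from 9921 to 15109 with a median of 14008 in saline livers and from 9377 to 13050 with a median of 12552 in LNA29 livers. All 6 LNA29 livers lay below the saline median, 1 of them below all saline livers, and the log2 fold change was -0.15 (95% interval -0.45 to 0.16, exact permutation p = 0.284). Under other processing the log2 fold change of Bdh1 ran from -0.149 to -0.085. Bdh1 carries 4 miR-29 seed matches, the most of the 37 genes, and whether miR-29 acts on it was not tested.

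The last 4 genes are targets of PPAR-alpha with other roles, of which Vnn1 was lower and Fgf21 higher past the test, and Pdk4 and Angptl4 did not pass. Vnn1 encodes vanin 1, a pantetheinase that releases pantothenate, the vitamin part of coenzyme A. Its values in saline livers were 2219, 1238, 1351, 1860, 2515 and 1873, and in LNA29 livers 1113, 1293, 679, 804, 604 and 1014. Only LNA29 replicate 46 overlapped with the saline livers. Vnn1 fell by 1.01 on the log2 scale, to 0.496-fold (95% interval 0.361 to 0.680, adjusted p in limma = 0.0834), with an exact permutation p of 0.00433. The exact p was 0.00866 or less with any liver left out. The adjusted p was 0.0176 in limma with the length covariate and 0.00612 in DESeq2.

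Fgf21, a hormone that the fasting liver releases, moved the other way, from between 11 and 70 reads per liver. In saline livers the values were 265.6, 381, 298.2, 110, 161.6 and 372.5, and in LNA29 livers 375, 561, 1320.8, 303.6, 283 and 684.9. No LNA29 liver lay below the saline median, and 3 lay above all saline livers. On the log2 scale it stood 1.06 higher (SE 0.38, 95% interval 0.25 to 1.86, exact permutation p = 0.0390, adjusted p in limma = 0.432). It lost the exact call without any of saline replicates 43, 47, 49 and 51 or LNA29 replicates 44, 46, 48 and 54.

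Pdk4, the kinase that keeps pyruvate out of oxidation, had 750, 333.3, 228.1, 500, 343.4 and 205.9 in saline livers and 725, 536.6, 603.8, 500, 207.5 and 1082.2 in LNA29 livers, from between 11 and 79 reads. The groups overlapped over most of their range, with LNA29 replicate 52 as low as the lowest saline livers. Its log2 fold change was 0.62 (95% interval -0.15 to 1.38, exact permutation p = 0.184), and without LNA29 replicate 52 the exact permutation p was 0.0433. Angptl4, a secreted inhibitor of lipoprotein lipase, had values from 4900 to 8526 with a median of 6636 in saline livers and from 5547 to 8317 with a median of 6868 in LNA29 livers. Its log2 fold change was 0.08 (95% interval -0.24 to 0.40, exact permutation p = 0.606), with 1 seed match.

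**Figure D2:**
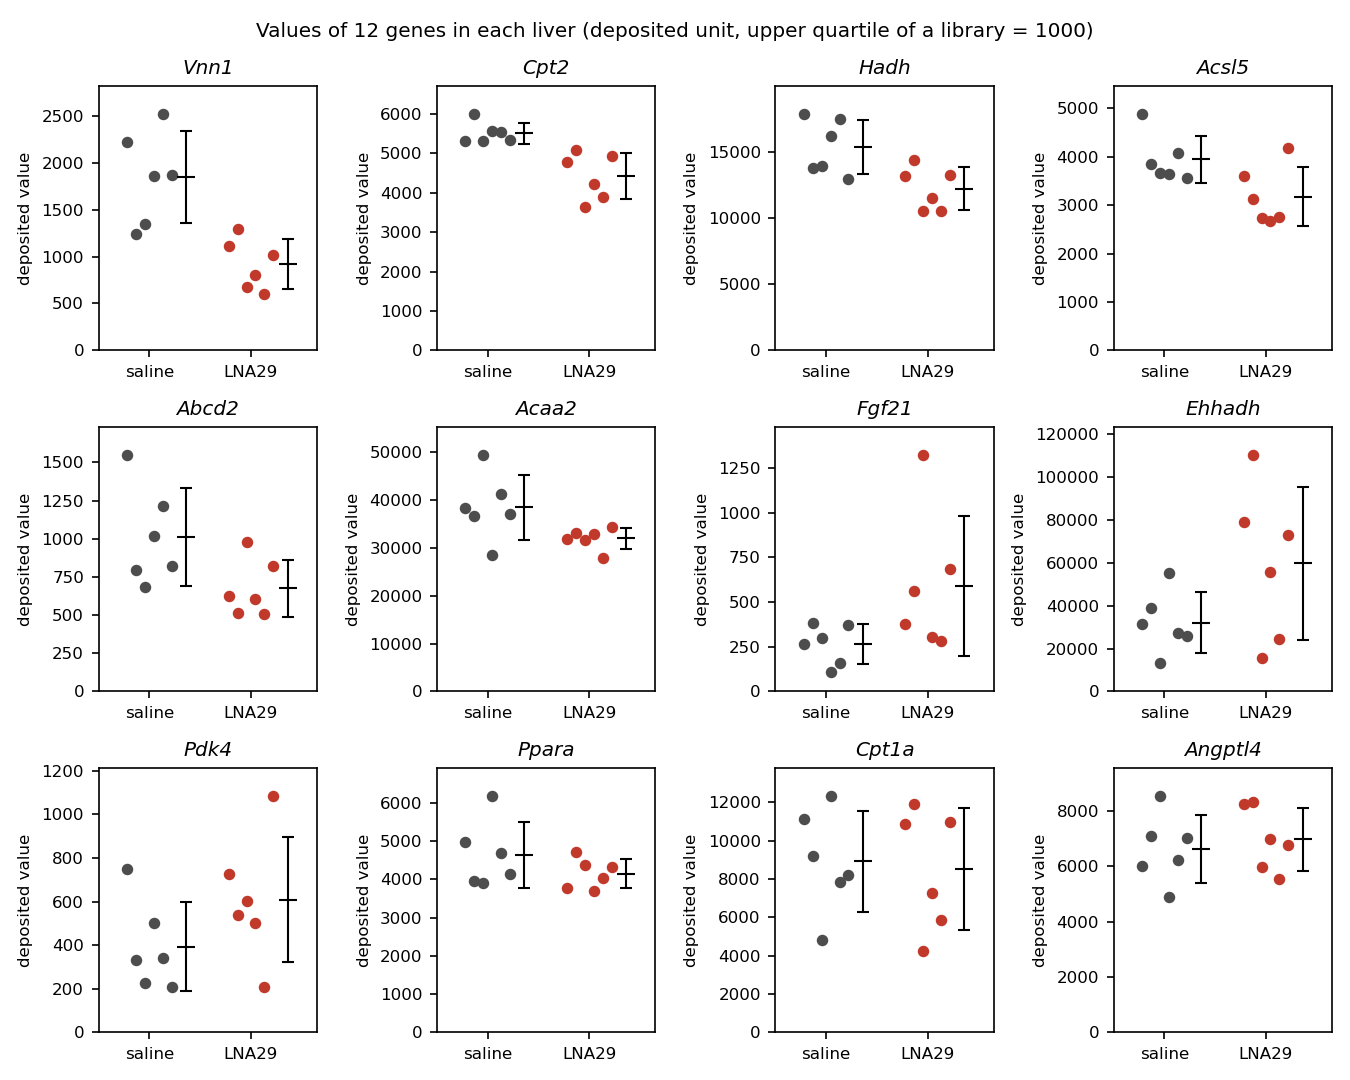
Deposited value (y axis, library upper quartile of 1000) of 12 genes in each of 6 saline (grey) and 6 LNA29 (red) livers, with the mean and SD of each group beside the points. Cpt2 does not overlap between the groups, Vnn1 overlaps in 1 LNA29 liver, and Ehhadh, Pdk4, Ppara, Cpt1a and Angptl4 overlap widely.

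The livers of a group did not move as one. LNA29 replicate 46 had the highest value of its group for 22 of the 37 genes, while replicate 52 had the lowest for 14 and replicate 48 for 13. The median deviation of the 37 genes from the saline means was 0.11 in LNA29 replicate 46 and -0.36 in replicate 52 on the log2 scale, and it ran from -0.16 to 0.12 over the saline livers. Saline replicates 47 and 49 held the highest saline value of 12 and 10 genes and the lowest of 11 and 9. Replicate 49 was highest for Ppara, Cpt1a, Acsl1, Crot, Etfdh and Ehhadh among others, and lowest for Fabp1, Etfb and Acaa2. The median SD over the 37 genes was 0.35 in saline and 0.30 in LNA29 livers on the log2 scale, against 0.50 in each group over all tested genes. The tested genes start at a mean of 10, while the lowest group mean among the 37 genes was 264.8 (Fgf21, saline). The part of abundance in this difference was not tested.

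**Figure D3:**
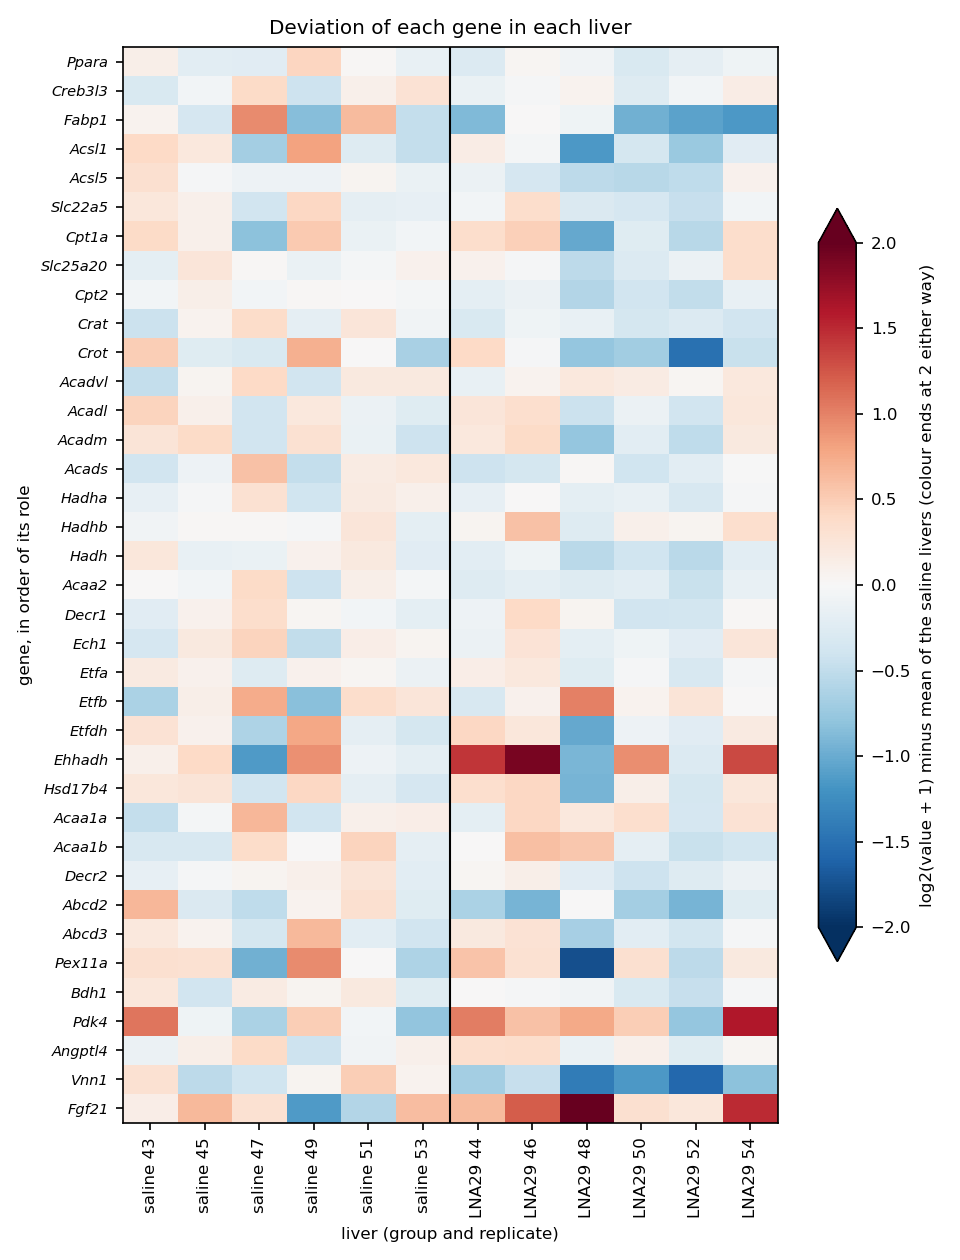
Deviation of each of the 37 genes (rows) in each liver (columns) from the mean of the saline livers, on the log2(value + 1) scale, red for higher and blue for lower. Vnn1 is blue in all LNA29 livers, Ehhadh is red in LNA29 replicates 44, 46, 50 and 54 and blue in 48 and 52, and Fgf21 is darkest in replicate 48, at 2.44.

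Beyond the 37 genes, 84 other genes of the same pathways were listed by role, of which 81 had a mean of at least 10. Of these 11 were lower past the exact permutation test (p under 0.05), 0 were higher, and 70 did not pass, which is 13.58% lower beside 6.34% of all tested genes. The median log2 fold change was -0.16. In edgeR with TMM scaling 6 passed at an unadjusted p, all of them lower, where 4.83% of all genes were lower, and DESeq2 gave 8 lower and 1 higher, where 2.81% and 2.44% were. With the length covariate 16 were lower and 2 higher, where 9.02% and 3.27% were. Acsm1, a medium-chain acyl-CoA synthetase, ran from 4810 to 7404 in saline livers and from 2658 to 4245 in LNA29 livers without overlap. It fell by 0.77 on the log2 scale (SE 0.15, exact permutation p = 0.00216) and was the one gene of these lists past the adjusted threshold (adjusted p in limma = 0.0468).

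Among the peroxisomal genes of these lists Lonp2, a protease, was lower in LNA29 livers, with -0.48 on the log2 scale (exact permutation p = 0.0130). Of 15 further mitochondrial genes 3 were lower, namely Acad8 by 0.57, Acad10 by 0.52 and Gcdh by 0.28 on the log2 scale (exact permutation p = 0.0108, 0.0108 and 0.0195). These act on branched-chain amino acids (Acad8) and on lysine and tryptophan (Gcdh).

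Of 13 receptors and cofactors, Rxra, the partner of PPAR-alpha, stood at -0.26 and Ppard, a related receptor, at -0.33 (exact permutation p = 0.0498 each). Among 17 further PPAR-alpha targets Gpd1, a glycerol phosphate dehydrogenase, fell by 0.52 and Mgll, the monoglyceride lipase, by 0.41 on the log2 scale (exact permutation p = 0.00649 and 0.0325). The lipid droplet gene Plin2 and the fatty acid transporter Cd36 had log2 fold changes of 0.21 and -0.31 (exact permutation p = 0.418 and 0.247).

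Markers of other cells of the liver moved little beside these results. Of 8 stellate cell markers 1 was lower past the exact test (Ngfr), of 9 Kupffer cell and macrophage markers 1 was higher (Marco), and of 9 hepatocyte markers 1 was lower (Apob). Of 7 endothelial, 6 bile duct and 6 blood cell markers 0 passed (smallest exact permutation p = 0.0693), and 0 had an unadjusted limma p under 0.05. The summed stellate level ran from 4310 to 6873 in saline and from 4366 to 10510 in LNA29 livers, and the summed Kupffer level from 11500 to 18000 and from 10180 to 21150. Fat cell markers stood out in a single liver of each group. Cfd was at 771.9 in saline replicate 47 and at 698.1 in LNA29 replicate 52, with at most 1 read in each of the other 10 livers. Retn and Adipoq had reads in the same 2 livers and in no other, at most 3 reads each, Plin1 had 8 reads in LNA29 replicate 52 alone, and Lep had none in any liver. The summed level of the 5 markers was at most 879.2 in saline and 944.4 in LNA29 livers, and LNA29 replicate 52 held the lowest value among the 6 LNA29 livers for 14 of the 37 genes. In these whole-liver samples fewer cells of a type and less RNA per cell cannot be told apart, and beyond the counts without both livers with fat cell markers the part of these markers in the results was not tested.

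**Figure D4:**
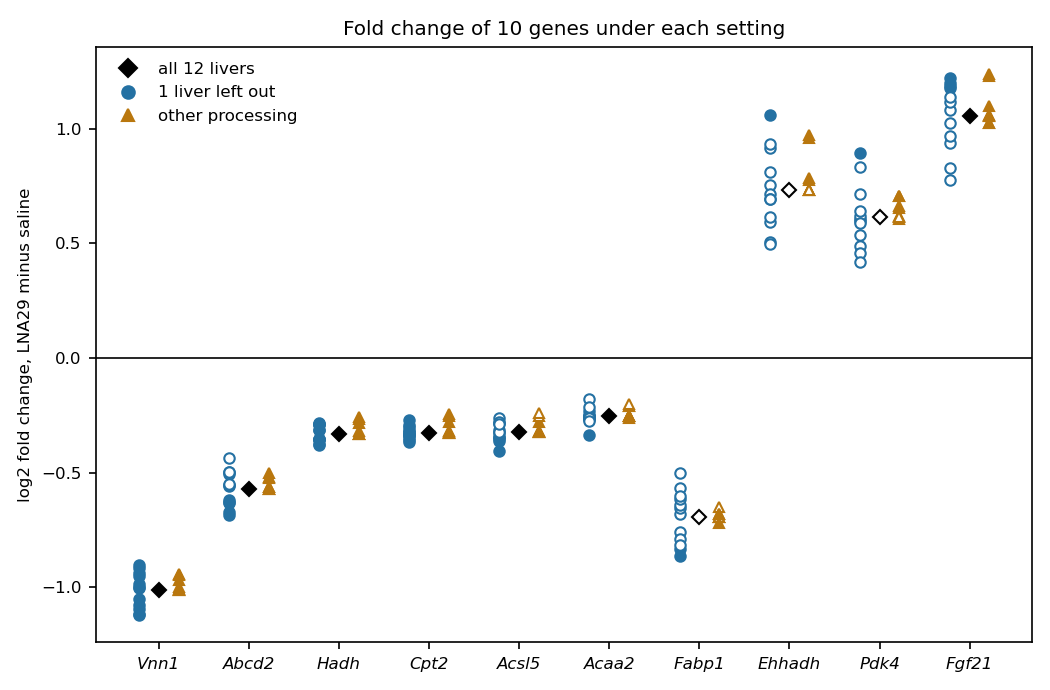
Log2 fold change (y axis, LNA29 minus saline) of 10 genes with all 12 livers (black), with 1 liver left out (blue) and under other processing (orange). Filled symbols have a p under 0.05. Vnn1, Cpt2 and Hadh stay filled in all 12 omissions, while Acaa2, Ehhadh and Pdk4 are filled in 1 of them each.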

How the data were processed

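The authors sequenced polyadenylated RNA as single reads, mapped them with MapSplice2 and estimated reads per gene with RSEM. The build mm9 is named in the submitters' processing notes, and versions are not given in the sources used here. They deposited signal values, which are reads scaled so that, over the genes that had reads, the upper quartile was 1000 (998.35 in saline replicate 49), with genes without reads set to 1. Columns of the authors' averages, fold changes and p-values were left out, and so were 2 columns of values that carry no name. Between 92.18% and 93.87% of the values above 1 were whole multiples of 1 read (within 0.02), and these reads, rounded, served for count tests as alternatives.

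The 37 genes and the other lists were chosen with earlier results of these data known, as were the tests. All 37 are named; values in every liver are given for genes with an unadjusted p under 0.05 and for a short list of central genes, and the other pathway genes are named where the exact permutation p was under 0.05, apart from some that are counted but not reported here. The replicates are labelled as separate livers, and no pair within a group agreed within sampling noise. Genes whose mean reached 10 (12486) were fitted on log2(value + 1) in limma 3.58.1 under R 4.3.3, with its trend option, and p-values were adjusted after Benjamini and Hochberg (threshold 0.05). Fold changes are on that scale. A gene without reads had a value of 1, and 1 read was worth between 9.804 and 24.39. Fold changes of genes with few reads are therefore uncertain and can be too large or too small. Single genes were tested with a two-sided exact permutation test. Alternatives were pseudocounts of 0.1 and 10, no filter, a mean of at least 100, livers shifted to a common median, edgeR 4.0.16 with TMM, DESeq2 1.42.0, each liver left out, and, chosen after seeing the data, the length trend of each library as covariate and the omission of both livers with fat cell markers. For edgeR, DESeq2 and the covariate, genes were counted by the unadjusted p of the model. The fits were tested on simulated reads with known changes. Coordinates and sequences are GRCm38, not the build of the authors. Python 3.11.15, numpy 2.4.6, pandas 2.3.3 and scipy 1.17.1 were used for the other steps.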

Additional observations from a re-analysis of the deposited data

How the results depend on the processing

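Pseudocounts of 0.1 and 10, no filter and a mean of at least 100 left the 37 genes at 6 lower and 1 higher and changed no call among them. The 20 genes past the adjusted threshold over the whole table became 5 with no filter, where more genes were tested, 10 with the livers shifted to a common median, 70 in DESeq2 and 124 with the length covariate, and 6 without both livers with fat cell markers (saline replicate 47 and LNA29 replicate 52, chosen after seeing the data). Of the 37 genes 1, Vnn1, passed that threshold in DESeq2 and 1, also Vnn1, with the covariate. Of the 37 genes 2 were lower and 2 higher in edgeR with TMM scaling, 5 lower and 3 higher in DESeq2, and 11 lower and 3 higher with the covariate, and 3 were lower without both livers with fat cell markers, where Acsl5, Hadh and Acaa2 did not pass. Of the other pathway genes 6 passed in edgeR and 18 with the covariate, against 11. For the 37 genes the median log2 fold change was between -0.116 and -0.024 in these settings. The median of all tested genes was -0.093 in the main test and 0.029 in DESeq2, so that the 37 genes stood 0.023 and 0.053 below it. They stood 0.116 below it with no filter, and 0.003 to 0.021 above it in 6 of the 12 omissions of 1 liver. The cause of these shifts was not tested.

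With 1 liver left out, between 1 and 29 genes passed the adjusted threshold. The fewest came without saline replicates 43 (1) and 51 (3) and LNA29 replicates 50 (1) and 54 (1), and the number also fell by more than 1.5 times without saline replicates 47 (11) and 53 (7) and LNA29 replicates 46 (9) and 52 (10). Between 3 and 6 of the 37 genes were then lower, with 3 without saline replicate 51 or LNA29 replicates 50 or 52, and between 0 and 2 were higher, with 2 without LNA29 replicate 52 and 0 without saline replicates 43, 47, 49 or 51 or LNA29 replicates 44, 46 or 54. Their median log2 fold change then ran from -0.172 to -0.056. In the same omissions between 5.07% and 7.33% of all tested genes were lower and between 1.78% and 2.53% higher. The share lower was 5.07% without saline replicate 51, 5.759% without LNA29 replicate 50 and 5.645% without LNA29 replicate 52.

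Only genes close to 0 changed sign. With the livers shifted to a common median these were Creb3l3 (0.004), Acadl (0.023), Ech1 (0.026), Etfa (0.002) and Hsd17b4 (0.016), in edgeR Acadl (0.041), Decr1 (0.013), Ech1 (0.022), Etfa (0.025) and Hsd17b4 (0.063), and in DESeq2 Creb3l3 (0.004), Cpt1a (0.005), Slc25a20 (0.006), Acadl (0.054), Decr1 (0.022), Ech1 (0.025), Etfa (0.035) and Hsd17b4 (0.076). Without both livers with fat cell markers they were Creb3l3 (0.038), Decr1 (0.068) and Ech1 (0.110). Over the omissions of 1 liver the log2 fold changes of the genes that changed sign ran as follows: Creb3l3 -0.126 to 0.036, Cpt1a -0.268 to 0.079, Slc25a20 -0.168 to 0.006, Acadvl -0.005 to 0.170, Acadl -0.099 to 0.066, Acadm -0.216 to 0.016, Decr1 -0.153 to 0.008, Ech1 -0.118 to 0.070, Etfa -0.097 to 0.013, Etfdh -0.212 to 0.099, Hsd17b4 -0.118 to 0.149, Acaa1b -0.085 to 0.124, Abcd3 -0.212 to 0.002, Pex11a -0.338 to 0.177, and Angptl4 -0.007 to 0.153. None of these genes had a p under 0.05 in any of these settings.

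No paired analysis was possible because the replicate numbers of the groups are not shared. Depth limits Pex11a, Fgf21 and Pdk4 most, with 8, 11 and 11 reads in their lowest livers. The 95% interval of the log2 fold change lay within 0.5 of 0 for 14 of the 37 genes and within 1 for 30. Of the other 7 genes the interval passed 1 on the higher side for Ehhadh, Fgf21 and Pdk4 and -1 on the lower side for Vnn1, Abcd2, Fabp1 and Crot.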

Other observations

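None of 10 genes of the wider fasting response, which carry no role in fatty acid oxidation, passed the exact test between the groups (smallest exact permutation p = 0.193, for Tat; 0 of 10 also had an unadjusted limma p under 0.05). Pck1, the gluconeogenic enzyme, ran from 337200 to 452980 in saline livers and from 355750 to 556240 in LNA29 livers, with a log2 fold change of 0.13. Igfbp1 and Tat, which fasting raises, had log2 fold changes of 0.74 and 0.53 (exact permutation p = 0.297 and 0.193).

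The 3 genes with the largest positive fold changes did not peak in the same liver. LNA29 replicate 48 had the highest Fgf21 of all 12 livers (1320.8) and the lowest Ehhadh, Cpt1a and Pex11a of its group. LNA29 replicate 46 had the highest Ehhadh (110120), and LNA29 replicate 54 the highest Pdk4 (1082.2). LNA29 replicate 52 was lowest of its group for Fgf21, Pdk4, Angptl4 and Vnn1.

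In a check of the 37 genes in each group of 6 livers, 0 of 74 had a lowest or highest liver set apart from the others by Dixon's ratio, where chance flags about 1 in 20.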
